A study of Homo sapiens with 4 samples.

Results

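The homeobox genes listed in an RNA-seq table of 2 human colorectal cancer cell lines with and without knockdown of EZH2 were examined. Members were taken by symbol: the genes of the HOXA, HOXB, HOXC and HOXD clusters and the main families of other homeobox transcription factors, among them the CDX, MSX, DLX, NKX, LHX, PBX, MEIS, IRX, TGIF and PAX genes. The rule found 87 members among the 7640 genes listed, of which 29 were HOX genes and 58 were other homeobox genes. HCT116 and RKO are established colorectal carcinoma lines. In each line, cells that stably carried a control short hairpin RNA (NC) were compared with cells that carried a hairpin against EZH2 (shE2), both delivered in the lentiviral vector pLKO.1 and selected with puromycin. All 4 groups were grown in DMEM with serum and normal glucose, and each group was 1 library, so that no change within a line has a replicate check and the 2 lines are the only repeat of the knockdown. The identity of the EZH2 hairpin, and whether it was the same in HCT116 and RKO, is not part of the labels.

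Homeobox genes encode transcription factors that bind DNA through a homeodomain. The HOX genes lie in clusters, and their order along the chromosome follows the order in which they act along the body axis, with low paralog numbers towards the head and high numbers towards the tail. Genes that share a paralog number in different clusters are the closest relatives. EZH2 is the methyltransferase of Polycomb repressive complex 2, which places the repressive H3K27me3 mark, and HOX clusters and many other homeobox genes are classical Polycomb targets. In the gut, CDX2 specifies intestinal identity and HOX genes mark position along the tract.

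The libraries held between 7898152 and 8185776 expected counts over the genes of the table. Levels are given as FPKM, fragments per kilobase of transcript scaled by the mapped fragments of the library, which can be compared between genes because they are set per length. A gene was taken as measured when its mean over the 4 libraries was at least 1 FPKM, which 67 members (28 HOX and 39 other) and 6139 genes of the table met. The targeted gene EZH2 was at 31.5 FPKM in HCT116 control and 12.6 in HCT116 knockdown cells, and at 33.6 in RKO control and 6.61 in RKO knockdown cells. Its level was therefore lower in both knockdown libraries, by 1.26 and 2.19 on the log2(FPKM + 1) scale. Of 12 intestinal epithelial markers 8 were in the table, and their summed level was 2713 and 2614 FPKM in the HCT116 libraries and 168 and 205 FPKM in the RKO libraries. In RKO, EPCAM was at 0 and 0.06 FPKM, CDH1 at 0.10 in both libraries and HNF4A at 0 in both, so that these epithelial markers were absent or nearly so in RKO. The keratins differed in RKO. KRT18 (154 and 188 FPKM) was most of the RKO sum, and KRT8 was at 7.05 and 7.63 FPKM. Both were higher in HCT116, KRT18 at 667 and 675 FPKM and KRT8 at 1262 and 1183 FPKM. KRT19 was at 567 and 562 FPKM in HCT116 and at 0.04 and 0 FPKM in RKO. KRT20 was at 1.53 and 1.61 FPKM in HCT116 and at 0.03 and 0 FPKM in RKO. CDX2 was present in both lines. Of 7 fibroblast and mesenchymal markers 3 were in the table, with summed levels of 11.9 and 17.3 FPKM in HCT116 and 0.58 and 0.76 FPKM in RKO. Vimentin (VIM) was at 3.80 and 6.37 FPKM and fibronectin (FN1) at 4.08 and 6.92 FPKM in control and knockdown HCT116 cells, and the part of these markers in the homeobox changes was not tested. Of 6 blood and endothelial markers 1 was in the table, at 0.04 to 0.13 FPKM.

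All 4 HOX clusters were expressed. HOXA on chromosome 7 had 9 of its 11 annotated genes in the table, HOXB on chromosome 17 had 8 of 10, HOXC on chromosome 12 had 7 of 9 and HOXD on chromosome 2 had 5 of 9. Among the others, HOXA2, HOXB1, HOXB3, HOXC6, HOXC12 and HOXD10 to HOXD13 were not analysed here. HOXA and HOXB genes made up most of the HOX signal: in control cells they summed to 272 of 292 FPKM in HCT116 (93.1%) and to 186 of 227 FPKM in RKO (82.2%). HOXA9, HOXB7 and HOXB8 had the highest mean levels among the HOX genes. In HCT116, 22 of the 29 HOX genes were at 1 FPKM or more in control and 21 in knockdown cells, and 26 were in both RKO libraries. The read counting is not stated to use strand, so a HOX gene and its antisense partner cannot be told apart, and none of 18 named HOX antisense and intergenic RNAs was in the table.

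Promoter sequences are shown for a few HOXA genes that differed in how much they changed, and for HOXC4. They come from RefSeq (GRCh38.p14), were matched by gene identifier, and do not share the build of the expression table, for which the processing notes name hg19. Each is the 200 bases just before the annotated start, with CpG dinucleotides in capitals.
HOXA3: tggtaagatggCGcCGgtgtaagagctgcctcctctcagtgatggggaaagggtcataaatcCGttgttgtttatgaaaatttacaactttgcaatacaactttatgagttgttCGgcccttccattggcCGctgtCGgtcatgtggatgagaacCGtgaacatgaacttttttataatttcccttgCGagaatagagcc
HOXA4: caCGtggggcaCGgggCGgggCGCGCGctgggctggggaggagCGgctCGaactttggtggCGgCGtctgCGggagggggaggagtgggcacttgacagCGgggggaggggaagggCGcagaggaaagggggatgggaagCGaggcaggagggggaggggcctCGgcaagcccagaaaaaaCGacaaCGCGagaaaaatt
HOXA9: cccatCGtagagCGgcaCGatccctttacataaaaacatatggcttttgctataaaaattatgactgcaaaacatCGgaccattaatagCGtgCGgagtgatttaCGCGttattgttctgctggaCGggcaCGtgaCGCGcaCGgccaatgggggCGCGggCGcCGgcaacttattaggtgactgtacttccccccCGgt
HOXA10: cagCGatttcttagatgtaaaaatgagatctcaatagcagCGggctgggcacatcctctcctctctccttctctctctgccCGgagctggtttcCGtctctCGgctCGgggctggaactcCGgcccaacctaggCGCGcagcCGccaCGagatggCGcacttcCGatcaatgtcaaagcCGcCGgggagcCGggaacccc
HOXA7: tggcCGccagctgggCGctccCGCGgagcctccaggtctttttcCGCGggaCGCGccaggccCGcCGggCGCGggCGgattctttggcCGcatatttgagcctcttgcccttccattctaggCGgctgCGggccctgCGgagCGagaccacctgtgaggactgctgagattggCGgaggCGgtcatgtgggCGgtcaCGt
HOXC4: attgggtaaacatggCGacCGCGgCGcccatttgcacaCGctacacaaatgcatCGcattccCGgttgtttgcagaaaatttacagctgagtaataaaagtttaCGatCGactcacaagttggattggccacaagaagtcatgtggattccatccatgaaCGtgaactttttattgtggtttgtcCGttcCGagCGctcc
The windows of HOXA3 (chr7:27152584-27152783), HOXA4 (chr7:27130758-27130957), HOXA9 (chr7:27165538-27165737), HOXA10 (chr7:27179862-27180061) and HOXA7 (chr7:27156676-27156875) are on the minus strand, and that of HOXC4 (chr12:54016688-54016887) is on the plus strand. They hold 8, 18, 18, 16, 22 and 13 CpG dinucleotides in the order shown. The annotated start of HOXA3 lies between those of HOXA6 and HOXA7, and HOXC4 and HOXC5 have the same annotated start. Of the 87 members 55 had a promoter entry, among them 8 of 9 HOXA, 0 of 8 HOXB, 2 of 7 HOXC and 4 of 5 HOXD genes. The summary that follows therefore does not cover HOXB. Over the 250 bases before the start, the median number of CpG dinucleotides was 24 in these 55, 20 in 6043 genes of the table and 11 in 27305 RefSeq promoters. The homeodomain core motif TAATTA, which reads the same on both strands, was present in 2 of the 55 windows (HOXD3 and MSX2, 3.64%), in 1.82% of the genes of the table and in 4.49% of all RefSeq windows. The PBX and HOX composite motif TGATNNAT, searched on both strands, was present in 1 (LHX4, 1.82%), in 3.03% of the genes of the table and in 6.69% of all. A match is a description of the letters and not of binding.

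**Figure D1:**
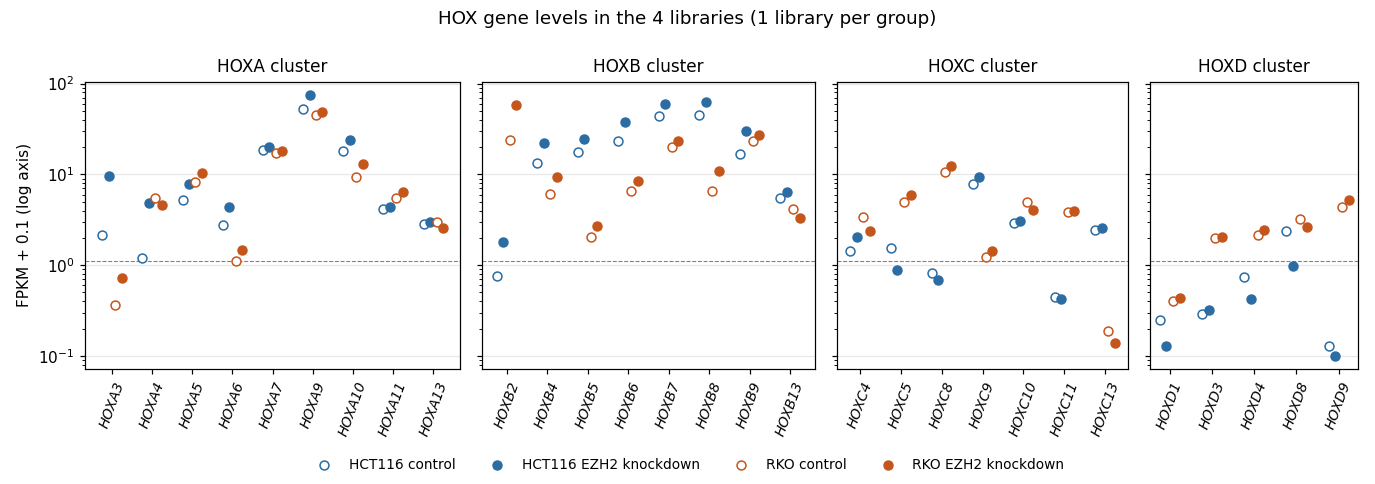
FPKM plus 0.1 on a log axis for each HOX gene of the table, by cluster and in paralog order, in the 4 libraries (1 per group, so there are no error bars). Open points are control and filled points knockdown libraries, and the dashed line is at 1 FPKM. HOXA9 is at 45.0 FPKM or more in every library, and HOXB2 has the largest difference between the lines among the HOX genes above 0 in all 4 libraries.

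Most HOXA and HOXB genes were higher in the knockdown library in HCT116, and 8 of them were higher in RKO as well. Higher and lower here mean more than 1.2-fold on the log2(FPKM + 1) scale, a difference of 0.26, which is a size and not a test. In HCT116, 13 of the 17 HOXA and HOXB genes were higher and 0 were lower, with a median change of 0.53. Of all measured genes 12.7% were higher and 9.66% were lower in HCT116, and their median change was 0.01. In RKO, 8 of the 17 were higher and 1 (HOXB13) was lower, with a median of 0.24. Of all measured genes 22.7% were higher and 10.9% lower in RKO, with a median of 0.01. The same 8 genes were higher in both lines (HOXA3, HOXA5, HOXA10, HOXB2, HOXB4, HOXB5, HOXB6 and HOXB8), and 3.99% of all measured genes were. The change was above 0 in both lines in 14 of the 17 genes and in 31.7% of all measured genes. Scaled by the median of ratios over all genes, 5 of the 17 were higher in RKO, and the same 5 were higher in both lines (HOXA3, HOXA10, HOXB2, HOXB4 and HOXB8). Under that scaling 18.5% of all measured genes were higher in RKO and 2.96% in both lines. At 1.5-fold in place of 1.2-fold, 35.3% of the 17 were higher in HCT116, beside 2.07% of all measured genes. In RKO 11.8% were, beside 12%, so the RKO share was above that of all measured genes at 1.2-fold but not at 1.5-fold. HOXC and HOXD genes differed from HOXA and HOXB genes at 1.2-fold. Of their 11 measured members 1 was higher and 3 were lower in HCT116, and 0 were higher and 1 was lower in RKO. HOXC and HOXD genes also had lower levels, with a median of 1.33 FPKM in HCT116 control and 3.29 in RKO control. The medians of HOXA and HOXB genes were 13.1 and 6.4 FPKM. At low levels the log2(FPKM + 1) scale makes a given ratio smaller, and the part of level in this difference was not tested.

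**Figure D2:**
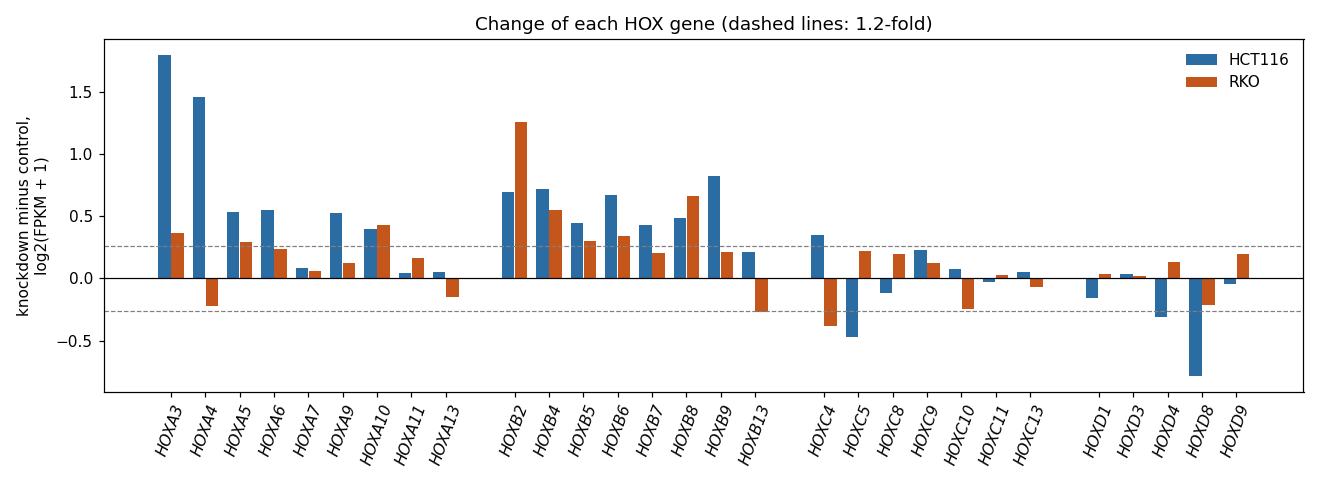
Change of each HOX gene, knockdown minus control on the log2(FPKM + 1) scale, in HCT116 and RKO (1 library per group, no error bars). Dashed lines mark 1.2-fold. All 17 HOXA and HOXB genes are above 0 in HCT116 and 14 are above 0 in both lines, while the HOXC and HOXD genes lie on both sides of 0.

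Among HOXA genes, the largest changes were those of the anterior paralogs HOXA3 and HOXA4 in HCT116. HOXA3 was at 2.05 FPKM in control and 9.59 in knockdown HCT116 cells, and at 0.26 and 0.62 FPKM in RKO. The ratio of its counts, adjusted for depth, was 4.39 (95% exact binomial interval 3.62 to 5.34) in HCT116 and 2.24 (1.27 to 4.07) in RKO. These intervals cover counting error only, as do all others given here. HOXA4 was at 1.09 and 4.75 FPKM in HCT116, a count ratio of 4.35 (2.94 to 6.60). In RKO it was at 5.36 in control and 4.46 FPKM in knockdown cells, a ratio of 0.832 (0.662 to 1.04), so the knockdown libraries of the 2 lines came close to one level from controls that were far apart. Whether the 2 lines responded differently was not tested for any gene.

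HOXA5, known as a factor that opposes stem cell traits in the colon, was at 5.09 and 7.83 FPKM in HCT116 and at 8.20 and 10.3 FPKM in RKO, changes of 0.54 and 0.30. HOXA6 was at 2.64 and 4.33 FPKM in HCT116 and at 1.02 and 1.38 in RKO. Its count ratio was 1.64 (1.06 to 2.58) in HCT116 and 1.35 (0.657 to 2.83) in RKO, so the RKO counts do not separate a rise from a fall. HOXA9, best known for its part in leukaemia, had the highest mean level of the HOX genes, at 52.1 and 75.6 FPKM in HCT116 and 45.0 and 49.2 FPKM in RKO. Its ratio was 1.45 (1.37 to 1.54) in HCT116 and 1.09 (1.02 to 1.17) in RKO. HOXA10, a regulator of uterine and blood development, was at 18.0 and 24.03 FPKM in HCT116 and at 9.30 and 12.9 FPKM in RKO, with like changes of 0.40 and 0.43.

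HOXA7, between these genes in the cluster, was at 18.6 and 19.8 FPKM in HCT116 and at 17.2 and 18.0 FPKM in RKO, changes of 0.09 and 0.06. The posterior genes HOXA11 and HOXA13, which pattern limbs and the urogenital tract, changed by 0.05 and 0.05 in HCT116 and by 0.17 and -0.15 in RKO. HOXA11 was at 4.08 to 6.25 FPKM and HOXA13 at 2.49 to 2.89 FPKM over the 4 libraries. Summed over the cluster, HOXA was at 106 and 153 FPKM in HCT116 (a ratio of 1.44) and at 94.7 and 106 FPKM in RKO (1.11).

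The HOXB cluster was higher in the knockdown library of both lines. It summed to 166 and 246 FPKM in HCT116 (a ratio of 1.48) and to 91.6 and 143 FPKM in RKO (1.56). In RKO much of this was HOXB2, a hindbrain patterning gene, which was 26.1% of the HOXB sum in control and 41.0% in knockdown cells. HOXB2 was at 23.9 and 58.5 FPKM in RKO, a count ratio of 2.41 (2.18 to 2.66). In HCT116 it was low, at 0.66 and 1.69 FPKM, with a ratio of 2.25 (1.24 to 4.26), so that the ratio was alike at very different levels. HOXB4, which promotes self-renewal of blood stem cells, was at 13.1 and 22.1 FPKM in HCT116 and at 5.93 and 9.17 FPKM in RKO, ratios of 1.69 (1.501 to 1.90) and 1.55 (1.31 to 1.84).

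HOXB5 was at 17.6 and 24.3 FPKM in HCT116 and at 1.93 and 2.60 FPKM in RKO, and HOXB6 was at 23.3 and 37.7 FPKM and at 6.41 and 8.36 FPKM. Both were higher in both lines, although the interval of the HOXB5 ratio in RKO included 1 (0.970 to 1.89). HOXB8, a regulator of myeloid progenitors, was at 45.0 and 63.5 FPKM in HCT116 and at 6.4 and 10.7 FPKM in RKO. Its ratio was 1.42 (1.33 to 1.51) and 1.62 (1.38 to 1.91). HOXB7 was at 44.3 and 60.0 FPKM in HCT116 and at 19.9 and 23.1 FPKM in RKO, changes of 0.43 and 0.20. HOXB9 was at 16.6 and 30.1 FPKM in HCT116, a ratio of 1.81 (1.66 to 1.98), and at 23.1 and 27.02 FPKM in RKO, a ratio of 1.17 (1.08 to 1.26). HOXB13, a posterior gene active in prostate and distal colon, was at 5.35 and 6.36 FPKM in HCT116 and at 4.03 and 3.17 FPKM in RKO, changes of 0.21 and -0.27.

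By position, 13 of the 14 HOXA and HOXB genes of paralog groups 2 to 10 were higher in HCT116 and 8 were higher in RKO. HOXA7 was the exception in HCT116. None of the 3 genes of groups 11 to 13 was higher in either line. This division was chosen after the values were seen. The expected counts of HOXA6, HOXA7 and HOXB4 to HOXB8 were not whole numbers, so reads were shared between these genes and other transcripts by the counting program.

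HOXC genes lay at 0.04 to 12.3 FPKM and differed little between control and knockdown as a group, with sums of 16.8 and 18.4 FPKM in HCT116 and 28.7 and 29.6 FPKM in RKO. HOXC4 was the only member past 1.2-fold in opposite directions in the 2 lines, a pattern that 1.65% of all measured genes had. It was at 1.33 and 1.96 FPKM in HCT116 and at 3.29 and 2.30 FPKM in RKO, with count ratios of 1.46 (0.960 to 2.24) and 0.708 (0.524 to 0.952), the first of which includes 1. Its neighbour HOXC5, which has the same annotated start, had the opposite pattern, at 1.46 and 0.78 FPKM in HCT116 and 4.89 and 5.86 FPKM in RKO. The sum of the 2 genes was 2.79 and 2.74 FPKM in HCT116 and 8.18 and 8.16 FPKM in RKO, so their sum hardly moved in either line. HOXC4 had counts that were not whole, whereas those of HOXC5 were whole in every library. The part of shared reads in the change of HOXC4 was not tested.

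HOXC8 was at 0.72 and 0.59 FPKM in HCT116 and at 10.6 and 12.3 FPKM in RKO, and HOXC11 at 0.35 and 0.32 and at 3.80 and 3.88 FPKM. HOXC9 was at 7.80 and 9.32 FPKM in HCT116 and at 1.13 and 1.32 FPKM in RKO, and HOXC10 was at 2.79 to 4.90 FPKM in all libraries. HOXC13, a hair and nail differentiation gene, was at 2.35 and 2.47 FPKM in HCT116 and at 0.09 and 0.04 FPKM in RKO. None of these genes was past 1.2-fold in either line.

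HOXD genes were the lowest of the clusters in HCT116, at sums of 3.26 and 1.46 FPKM, and were at 11.7 and 12.2 FPKM in RKO. HOXD8 was at 2.25 and 0.89 FPKM in HCT116 and at 3.12 and 2.56 FPKM in RKO, count ratios of 0.467 (0.309 to 0.694) and 0.716 (0.544 to 0.939), so it was lower in the knockdown library of both lines by its counts. HOXD4 was at 0.64 and 0.32 FPKM in HCT116, but the interval of its count ratio included 1 (0.444 to 1.32). HOXD9 was at 0.03 and 0 FPKM in HCT116 and at 4.31 and 5.08 FPKM in RKO. HOXD3 was at 0.19 and 0.22 FPKM and at 1.88 and 1.92 FPKM, and HOXD1, below the level for measured genes, was at 0.03 to 0.33 FPKM.

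Outside the clusters, 39 of 58 homeobox genes were measured. In HCT116, 7 were higher, 7 were lower and 25 were within 1.2-fold, beside 12.7% of all measured genes higher and 9.66% lower. In RKO, 4 were higher and 0 were lower, beside 22.7% and 10.9%. With a pseudocount of 0.1 in place of 1, the RKO counts were 9 and 3, and with median-of-ratios scaling they were 3 and 2. Over all 6139 measured genes the RKO counts were 1756 and 945 with that pseudocount and 1137 and 1251 with that scaling. Over all 67 measured members, the HCT116 counts were 21 higher and 10 lower and the RKO counts were 12 and 2. The share higher was thus 31.3% in HCT116, above the 12.7% of all measured genes, and 17.9% in RKO, below their 22.7%. In both lines 9 members were higher and 0 were lower, and of all measured genes 2.66% were lower in both. PBX3, a TALE family cofactor that binds DNA together with HOX proteins, was the only one of the 39 that was higher in both lines. It was at 3.18 and 6.43 FPKM in HCT116 and at 30.4 and 37.0 FPKM in RKO, with count ratios of 1.77 (1.45 to 2.17) and 1.22 (1.13 to 1.30). Its RKO change of 0.28 lay just past the size used, and with median-of-ratios scaling it was within 1.2-fold. The related cofactor MEIS2, with changes of -0.13 and -0.02, was within 1.2-fold in both lines.

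**Figure D3:**
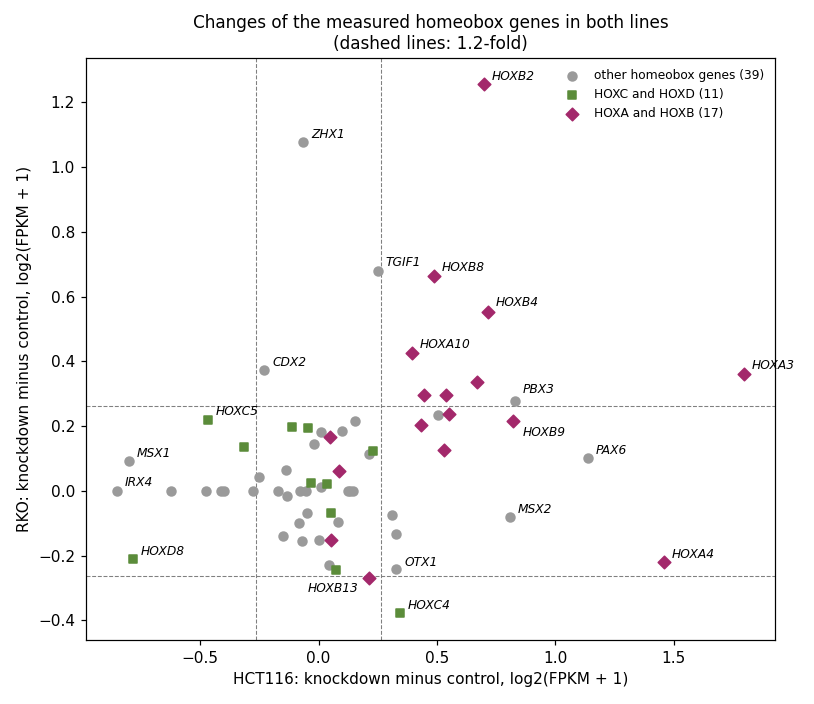
Change in HCT116 (horizontal axis) against change in RKO (vertical axis) for the 67 measured homeobox genes, each knockdown minus control on the log2(FPKM + 1) scale. Dashed lines mark 1.2-fold in each line. Of the 9 genes in the upper right field, 8 are HOXA or HOXB genes and the other is PBX3, and the lower left field is empty.

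The MSX genes, targets of BMP signalling, differed in opposite directions in HCT116. MSX1 was at 60.7 FPKM in control and 34.4 in knockdown cells, a count ratio of 0.567 (0.527 to 0.610). MSX2 was at 16.4 and 29.5 FPKM, a ratio of 1.76 (1.59 to 1.94). In RKO both stayed within 1.2-fold, MSX1 at 19.1 and 20.4 and MSX2 at 3.53 and 3.28 FPKM.

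PAX6, the eye and pancreatic islet factor, had the largest change of the genes outside the clusters in HCT116, at 1.51 and 4.52 FPKM. Its FPKM ratio of 2.99 was larger than its count ratio of 2.24 (1.77 to 2.86), and in RKO it was at 0.11 and 0.19 FPKM. SATB1, a chromatin organiser with a homeodomain, was at 1.52 and 2.57 FPKM in HCT116 and 11.04 and 13.2 FPKM in RKO, and LHX4 was at 0.57 and 0.97 FPKM and 3.64 and 3.23 FPKM. OTX1 was at 9.21 and 11.8 FPKM in HCT116 and at 2.64 and 2.08 FPKM in RKO, changes of 0.33 and -0.24. The seventh gene that was higher in HCT116, TGIF2, overlaps a readthrough transcript and had a change of 0.31.

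The 7 genes that were lower in HCT116 were MSX1 and 6 genes without a count in either RKO library. IRX4, a cardiac ventricle factor, was at 9.04 and 4.57 FPKM, a count ratio of 0.505 (0.419 to 0.608). NKX1-2 was at 4.56 and 2.61 FPKM, TLX3 at 2.50 and 1.52, ISL2 at 2.68 and 1.77 and NKX2-8 at 3.56 and 2.46 FPKM. GBX2 was at 2.79 and 2.13 FPKM, and the interval of its count ratio included 1 (0.546 to 1.08).

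In RKO, ZHX1, a zinc finger and homeobox repressor, had the largest change of the genes outside the clusters. It was at 10.8 and 23.8 FPKM in RKO, a count ratio of 2.21 (2.05 to 2.38), and at 7.42 and 7.05 FPKM in HCT116. Its RKO change was 1.08, and 0.71 after the trend of change on GC content over all genes was subtracted. TGIF1, a repressor in TGF-beta signalling and the member with the highest mean over the 4 libraries, was at 89.9 and 107 FPKM in HCT116 and at 16.2 and 26.5 FPKM in RKO, changes of 0.25 and 0.68. CDX2 was at 10.7 and 8.95 FPKM in HCT116 and at 6.91 and 9.24 FPKM in RKO. Its count ratio was 0.873 (0.762 to 1.00) in HCT116 and 1.203 (1.05 to 1.38) in RKO, so it was higher in the RKO knockdown library alone. Among the largest falls in RKO outside the clusters were those of OTX1, POU2F1 (4.15 and 3.39 FPKM), DLX2 (1.75 and 1.47) and IRX2 (9.61 and 8.56), and all were within 1.2-fold. With median-of-ratios scaling OTX1 and POU2F1 were past it, both with a change of -0.32, and POU2F1 was at -0.41 with the GC trend subtracted.

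The 20 members that were not measured lay at 1.68 FPKM or less in every library. The highest was HMX3, at 0.90 and 1.68 FPKM in RKO and at 0 in both HCT116 libraries. LHX5 was at 1.41 and 0.80 FPKM and SIX3 at 1.44 and 1.5 FPKM in HCT116.

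The common effect of the knockdown was tested over the 2 lines with edgeR's quasi-likelihood test on the expected counts, with the line as a block. The fit left 1 residual degree of freedom. None of the 84 members was called at an adjusted p under 0.05, as none of all 7409 genes tested was (0%), EZH2 itself included (log2 fold change -1.73, edgeR adjusted p = 0.807). DESeq2 called 1 gene higher and 3 lower, EZH2 among the latter (DESeq2 adjusted p = 0.0464). At an unadjusted p under 0.05, 5 members were higher and 1 was lower, beside 1.98% and 1.77% of all genes. limma gave 7 and 0 members at that level and DESeq2 gave 3 and 0. DESeq2 called none of the members, but it gave an adjusted p to 9 of them only, and to none of HOXA3, HOXB2, HOXB4, PAX6 and HOXD8. By edgeR the 5 higher genes were HOXB2 (log2 fold change 1.12, SE 0.21), HOXA3 (1.71, SE 0.35), HOXB4 (0.61, SE 0.19), PAX6 (0.95, SE 0.32) and HOXB8 (0.51, SE 0.18). The lower one was HOXD8 (-0.86, SE 0.29). The edgeR adjusted p of each was 0.807.

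Many members differed between the lines. For the difference of RKO from HCT116 in the same edgeR fit, 23 of the 84 members tested were higher in RKO and 44 higher in HCT116 at an adjusted p under 0.05, beside 27% and 37.4% of all genes. The test covers the spread between these libraries, and each line is a single line. The scale between the lines was itself uncertain: edgeR's TMM factors placed RKO 0.35 higher on the log2 scale than the depth that the FPKM imply, and with that depth 18 of 85 members tested were higher in RKO and 48 in HCT116. The shares of all genes moved the same way, to 19.8% and 41.5%. DESeq2 called 18 of 84 members higher in RKO and 33 higher in HCT116, beside 1594 and 2041 of all 7409 genes. With limma 17 and 34 of 67 members were called, beside 1499 and 2440 of all 6139 genes. By edgeR with TMM factors, HOX genes were called in both directions, 11 higher in RKO and 9 higher in HCT116 of 29. Among the 11, HOXA5, HOXA11, HOXC10 and HOXD8 lost their call with the depth implied by FPKM, with DESeq2 and with limma. Among the 9, HOXA10 lost its call with DESeq2.

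By cluster, 5 of 8 HOXB genes were higher in HCT116 and 1 higher in RKO, while 4 of 7 HOXC and 4 of 5 HOXD genes were higher in RKO. On the log2 scale, RKO minus HCT116, the difference was 5.32 for HOXB2 (SE 0.23, adjusted p = 0.000378 by edgeR), whereas it was -2.85 for HOXB5 and -2.36 for HOXB8. It was 4.46 for HOXC8 and 3.87 for HOXC11, and -2.45 for HOXC9 and -4.77 for HOXC13, so nearby genes of one cluster went opposite ways. In HOXA, the difference was -3.15 for HOXA3, and HOXA9, HOXA7 and HOXA13 were not called (adjusted p = 0.792, 0.309 and 0.372 by edgeR). HOXD3 was at 3.36 and HOXD4 at 2.40 by the same measure.

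**Figure D4:**
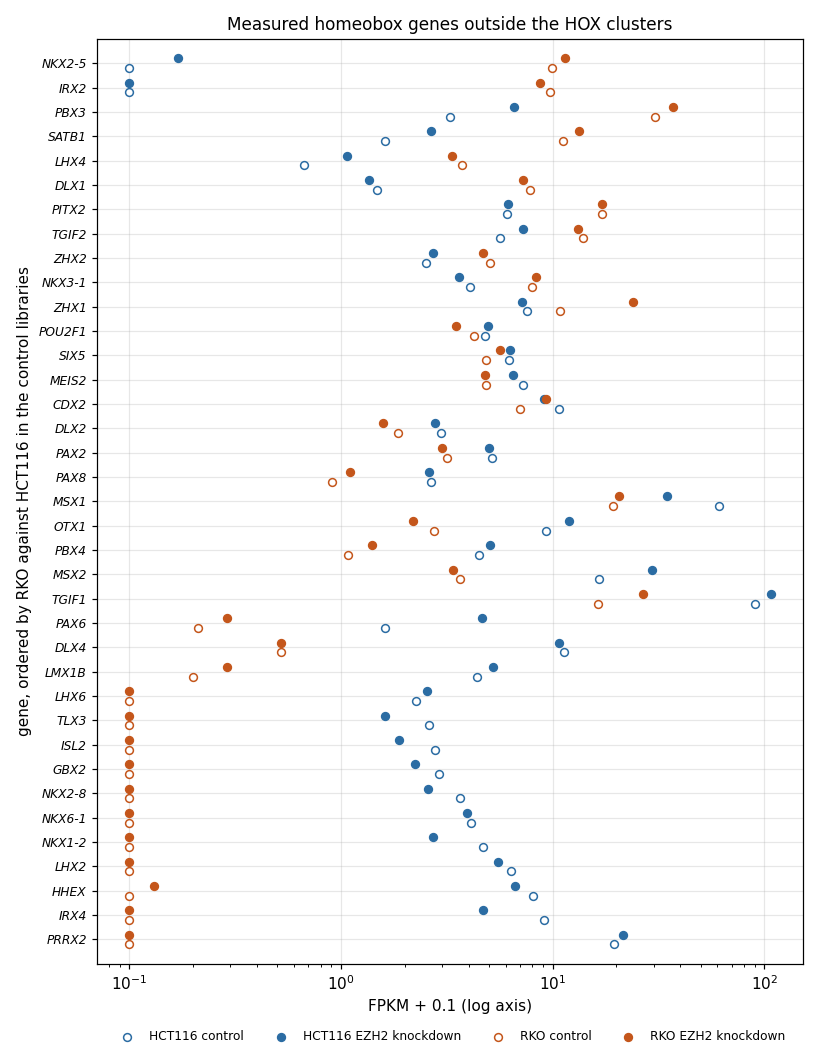
FPKM plus 0.1 on a log axis for 37 of the 39 measured homeobox genes outside the HOX clusters in the 4 libraries, ordered by the difference of RKO from HCT116 in control cells. Open points are control and filled points knockdown libraries, 1 per group, and genes at 0 lie at 0.1. At the foot, from LHX6 down, lie 11 genes at 0 in the RKO control library, and at the top NKX2-5 and IRX2 are at 0 in the HCT116 control library.

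Of the 55 other homeobox genes tested, 12 were higher in RKO and 35 higher in HCT116. Of all 58, 21 had no count in either RKO library and 2 (IRX2 and HMX3) none in either HCT116 library, and none of the 29 HOX genes was at 0 in both libraries of a line. Of all genes listed, 7.77% were at 0 in both RKO and 0.825% in both HCT116 libraries, so the table as a whole holds more genes missing from RKO. Against a floor of 3 counts per library, PRRX2, a mesenchymal factor, was at least 142-fold higher in HCT116 (19.4 and 21.3 FPKM). By the same floor LHX2 was at least 81.6-fold, IRX4 at least 63.6-fold, NKX1-2 at least 51.4-fold, LHX6 at least 44.3-fold, NKX2-8 at least 27.9-fold and ISL2 at least 27.6-fold higher in HCT116. Among the 21 genes at 0 in RKO were 5 of the 8 LIM and 7 of the 19 NK-like genes.

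In the other direction, IRX2 was at least 130-fold higher in RKO (9.61 and 8.56 FPKM), and the cardiac factor NKX2-5 was at 0 and 0.07 FPKM in HCT116 and at 9.82 and 11.3 FPKM in RKO. The log2 difference, RKO minus HCT116, was 3.21 for PBX3. It was 2.86 for SATB1 and 2.84 for DLX1, and -4.69 for LMX1B, -4.31 for DLX4, -2.34 for MSX2 and -1.90 for TGIF1. The edgeR difference for CDX2 was 0.20 (SE 0.20, adjusted p = 0.399), and it turned to -0.15 with the depth implied by FPKM. In 82 of the 87 members the sign of the line difference was the same in the control and in the knockdown libraries, and 32 were more than 2-fold higher in HCT116 and 13 more than 2-fold higher in RKO in both. Of all 7640 genes listed, 88.5% had the same sign, 22% were more than 2-fold higher in HCT116 and 10.4% more than 2-fold higher in RKO.

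Other genes of related function were counted from lists. Of 19 genes of the retinoic acid pathway, which activates anterior HOX genes in embryos, 9 were in the table and 7 were measured. In HCT116, 3 were higher and 0 lower, among them the retinal dehydrogenase ALDH1A3 (53.3 and 94.8 FPKM) and the reductase DHRS3 (29.2 and 37.5). In RKO, 0 were higher and 2 were lower, the receptor RARG (20.5 and 15.6 FPKM) and the retinoic acid hydroxylase CYP26B1 (2.21 and 1.66). The median changes of the 7 were -0.15 and 0.01.

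Of 16 genes of the trithorax group and H3K27 demethylation, which oppose Polycomb, 9 were in the table and all were measured. In HCT116, 1 was higher and 1 lower (11.1% each), beside 12.7% and 9.66% of all measured genes. In RKO, 3 were higher (33.3%) and 2 lower (22.2%), beside 22.7% and 10.9%. The median changes were 0.04 and 0.00. The third in RKO, MLLT3 (2.40 and 3.08 FPKM), lay at the 1.2-fold limit itself. MLLT1 was lower in both lines (28.8 and 22.1 FPKM in HCT116, 35.5 and 27.5 in RKO). The H3K27 demethylase KDM6B was at 6.64 and 7.45 FPKM in HCT116 and at 8.08 and 12.2 FPKM in RKO. Of 68 further homeobox genes that the symbol rule does not take, 21 were in the table and 16 were measured, with 3 higher and 1 lower in HCT116, 2 higher and 1 lower in RKO and 0 higher in both. Among them ZEB1, a zinc finger homeobox factor of epithelial to mesenchymal transition, was at 1.02 and 1.36 FPKM in HCT116 and at 1.84 and 15.0 FPKM in RKO.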

How the data were processed

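RNA from 4 libraries was made with a TruSeq kit and sequenced on an MGI2000 instrument. The authors aligned reads with Bowtie and quantified them with RSEM, per the study's methods. The methods name the mouse build mm10, while the processing notes list Bowtie2, BWA, hg19 and GRCh37. Versions are not given in the sources used here. The deposited table gives FPKM and RSEM expected counts per gene for each library. It also holds 2 columns of the authors' own log2 ratios, which were not used. It lists 7640 genes, not all genes. Sums were 7898152 to 8185776 expected counts per library.

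Change was the difference of log2(FPKM + 1) between knockdown and control. Genes with a mean of at least 1 FPKM were measured, and 1.2-fold counted as higher or lower. Count ratios were scaled by relative depth, with exact binomial 95% intervals. Expected counts were rounded and tested with edgeR 4.0.16 (TMM, filterByExpr, quasi-likelihood, line and hairpin as terms, Benjamini-Hochberg at 0.05), with limma 3.58.1 and DESeq2 1.42.0 as alternatives, in R 4.3.3. Only the edgeR step was run on simulated counts, at a lower dispersion than the one fitted here and without a line difference. That run does not measure how the test performs on these data. GC content was available for 99.1% of measured genes (GENCODE transcripts).

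Named genes were EZH2, all HOX genes, other members past 1.2-fold the same way or opposite ways in both lines, the 5 largest rises and falls in each line, the 8 with the largest line difference each way, the 5 with the highest mean, and up to 4 per list. Other genes named (KRT8, KRT19, KRT20, GBX2, TGIF2, MEIS2, DHRS3, DLX1, DLX4, LMX1B, HMX3, LHX5 and SIX3) were chosen after their values were seen. Members and lists were chosen with earlier results of these data known. Some genes that meet these rules are not reported here.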

Additional observations from a re-analysis of the deposited data

Results flagged for a closer look

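HOXC4 was past 1.2-fold in opposite directions in the lines: its change on the log2(FPKM + 1) scale was 0.35 in HCT116 and -0.38 in RKO. Whether these 2 changes differ was not tested, and each change compares 1 library with 1 library.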

How the results depend on the processing

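The labels give no replicate numbers, so the only pairing was by cell line, as a block in the knockdown test; without the block edgeR called 0 members, as with it. Each group was 1 library, so none was left out. No called result reversed in direction. At 1.5-fold and 2-fold, 9 and 3 members were higher and 4 and 0 lower in HCT116, 4 and 2 higher and 0 and 0 lower in RKO; in both lines 1 and 0 were higher. For HOXA and HOXB genes, 6 and 2 were then higher in HCT116, 2 and 1 higher in RKO with 0 lower. Past the size in both lines were 1 and 0. The HCT116 counts were 35.3% and 11.8% of the 17 genes, beside 2.07% and 0.424% of all measured genes. The RKO counts were 11.8% and 5.88%, beside 12% and 5.98%, so the RKO share was not above that of all measured genes. Of all 67 measured members, 5.97% and 2.99% were higher in RKO at these sizes. With pseudocounts of 0.1 and 0.01, 8 and 9 members were lower in RKO and 1 fell past the size in both lines, with 2 HOXA and HOXB genes lower in RKO at 0.01; of the 39 other homeobox genes 9 were higher and 3 lower in RKO at both. With median-of-ratios scaling, 7 members were lower in RKO, and in both lines 5 were higher and 1 was lower; 5 HOXA and HOXB genes were higher in RKO, 5 in both lines, and 2 were lower in RKO. Over all measured genes that scaling changed the RKO split from 1394 higher and 671 lower to 1137 and 1251. At a mean of at least 5 FPKM, 1 member was lower in HCT116 and 0 in RKO, where 0 HOXA and HOXB genes were lower. With the GC trend subtracted, 9 HOXA and HOXB genes were higher in both lines and 0 were lower in RKO. The share of all measured genes higher in both lines was then 2.96%. It was 6.92% and 7.66% with pseudocounts of 0.1 and 0.01, and 3.67% at a mean of at least 5 FPKM. At an adjusted p of 0.001 by edgeR, 8 members were higher in RKO and 7 higher in HCT116, beside 318 and 621 of all 7409 genes tested. The depth implied by FPKM was added after seeing the data. The cause of these differences was not tested. With 1 library per group, neither library nor clone effects can be told apart from the knockdown, and genes under about 1 FPKM rest on few counts.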
